A study of Mus musculus with 8 samples.

Results

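CXC chemokines are small proteins that guide leukocytes, and 7 of their genes were followed in cultured macrophages with and without Mkl1: Cxcl1, Cxcl2, Cxcl3, Cxcl5, Ppbp, Pf4 and Cxcl16. The genes were chosen by symbol from the count tables of bone marrow derived macrophages (BMDMs), and all 7 were among the 53735 genes listed. Of the 7, 6 passed the filter on low counts, as did 14418 genes in all, and Ppbp did not. Bulk RNA-seq gave 8 libraries, 4 of each genotype, which were made in 2 experiments. WT1, WT2, KO5 and KO6 formed experiment 1, and WT3, WT4, KO7 and KO8 formed experiment 2. WT cells were Mkl1+/+, Apoe-/- and KO cells Mkl1-/-, Apoe-/-. All donors were male mice aged 6 months that had received angiotensin II (Ang II) by minipump at 1.44 mg/kg/day for 7 days, and their marrow was then cultured for 7 days. The comparison asks what loss of Mkl1 changes in the RNA of these macrophages. The groups share the loss of Apoe and the Ang II infusion, and the comparison holds no library without them. The knockout was global, so the allele was not limited to macrophages, and Mkl1 RNA was reduced but still counted in KO. The labels do not say whether each library came from a separate mouse, so p-values measure the spread between these libraries, which may be technical in part.

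Cxcl1, Cxcl2, Cxcl3, Cxcl5 and Ppbp (platelet basic protein, the precursor of CXCL7) encode ligands of the receptor CXCR2, through which neutrophils are drawn out of the blood. Pf4 encodes CXCL4, a chemokine stored in platelets that binds heparan sulfate and draws neutrophils poorly by itself. Cxcl16 encodes a membrane-bound ligand of CXCR6 that attracts mainly T cells, takes up oxidized lipoprotein and can be shed by ADAM10. In macrophages the first 3 genes are classic early targets of NF-κB after signals from TLRs, TNF or IL-1, and their short-lived mRNAs carry AU-rich elements. MKL1 is a coactivator of SRF, the factor that binds the CArG box.

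Read by genome position, 6 of the 7 genes form a cluster on chromosome 5, all on the plus strand. In GENCODE M21 on GRCm38, the build named in the submitters' processing notes, the order is Cxcl5 (chr5:90759360-90761624), Ppbp (chr5:90768518-90770063), Pf4 (chr5:90772435-90773383), Cxcl3 (chr5:90786103-90789600), Cxcl1 (chr5:90891241-90893115) and Cxcl2 (chr5:90903871-90905938). Cxcl16 lies alone on the minus strand of chromosome 11 (chr11:70453983-70459984). Its span overlaps Zmynd15 on the other strand, which had between 3.597 and 25.82 CPM (counts per 1000000), and whether counting used the strand is not given in the sources used here.

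The promoters of the cluster are shown because the levels described below move in separate patterns within this short stretch. RefSeq promoter sequences on GRCm38.p6 were found for 5 of the 7 genes. Each is printed 5′ to 3′ on the plus strand for the 120 bases that end just before the RefSeq start. RefSeq places the starts of Cxcl1, Cxcl2 and Cxcl3 at 90891245, 90903899 and 90786101, which differ from those of GENCODE above, and distances to a start are counted from RefSeq. Capitals mark the 9 letters GGAATTTCC, which match an NF-κB site, or in Ppbp a CArG box. The 9 letters were picked after the promoters had been read.
Cxcl1 promoter, chr5:90891125-90891244: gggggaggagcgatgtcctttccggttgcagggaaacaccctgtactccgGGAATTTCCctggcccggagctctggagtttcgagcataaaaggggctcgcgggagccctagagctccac
Cxcl2 promoter, chr5:90903779-90903898: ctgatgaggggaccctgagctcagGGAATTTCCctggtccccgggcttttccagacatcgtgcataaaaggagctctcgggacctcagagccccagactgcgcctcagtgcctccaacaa
Cxcl3 promoter, chr5:90785981-90786100: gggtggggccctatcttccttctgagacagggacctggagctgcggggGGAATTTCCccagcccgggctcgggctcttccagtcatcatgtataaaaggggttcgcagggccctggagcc
Ppbp promoter, chr5:90768398-90768517: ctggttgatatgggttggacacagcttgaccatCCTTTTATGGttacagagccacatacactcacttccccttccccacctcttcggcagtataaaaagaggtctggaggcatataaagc
Pf4 promoter, chr5:90772315-90772434: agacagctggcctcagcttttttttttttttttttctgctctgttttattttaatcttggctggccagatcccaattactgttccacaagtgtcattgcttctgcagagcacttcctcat
Cxcl1, Cxcl2 and Cxcl3 each held the 9 letters, beginning 70, 96 and 72 bases before the start. Searched on both strands in windows of 300 bases, the same letters occurred in 104 of 32851 promoters (0.317%). The wider NF-κB consensus, which these matches also meet, occurred in 8.46% of promoters. A CArG box began 87 bases before the start of Ppbp and was matched in 1.63% of promoters, and none of the other 4 windows held one. The window of Pf4 held none of these motifs. A match in a window is a description of its letters and no evidence that a factor was bound there.

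In their transcripts the genes differ too. ATTTA pentamers in the 3′ UTR, the core of AU-rich elements, numbered 7 in Cxcl1, 11 in Cxcl2, 5 in Cxcl3, 5 in Cxcl5, 2 in Cxcl16 and 1 each in Pf4 and Ppbp. Per length of 3′ UTR, 0.449% of 19135 protein-coding genes had at least as many as Cxcl2, 0.951% as many as Cxcl1, 2.56% as many as Pf4, whose 3′ UTR is short, and 2.94% as many as Cxcl3. That share was 41.8% for Ppbp and 43.9% for Cxcl16, with Cxcl5 in between. The coding sequences of Cxcl2 and Cxcl3 were 89.7% identical, with a shared run of 110 bases in their transcripts, against 78.8% for Cxcl1 and Cxcl2 and 75.7% for Cxcl1 and Cxcl3. How reads with several matches were counted is not given in the sources used here, so counts of Cxcl2 and Cxcl3 could affect each other.

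Before the chemokines, the libraries themselves were checked. Libraries held 33977799 to 41584540 counts. Mkl1 had 25.6, 27.1, 26.8 and 29.6 CPM in WT1 to WT4 and 19.5, 20.9, 14.6 and 10.4 CPM in KO5 to KO8, lower in every KO library but not lost. The macrophage markers Csf1r and Adgre1 were high throughout, with 751 to 2538 CPM and 1669 to 8328 CPM. Mertk, of the same list, was lower, with 19.7 to 104 CPM. Of 10 macrophage markers, 3 were lower and 7 higher in KO of experiment 1, where 28.1% of all tested genes were lower and 27.0% higher, and 1 was lower and 2 higher in KO of experiment 2, where the shares were 8.29% and 7.52%. Adgre1 fell by 2.11 on the log2 scale in experiment 1 (edgeR adjusted p = 6.39e-06) and rose by 0.91 in experiment 2 (edgeR adjusted p = 0.0258), while Csf1r rose by 0.82 (edgeR adjusted p = 0.000966) and then fell by 1.28 (edgeR adjusted p = 0.0309). Some genes were alike in WT of experiment 1 and KO of experiment 2. Lox had 628 and 430 CPM in WT1 and WT2 and 203 and 291 CPM in KO7 and KO8, but 31.1 to 54.7 CPM in WT3, WT4, KO5 and KO6, and Cd209f was counted only in the first 4 of these libraries. Whether KO libraries were swapped between the experiments cannot be told apart from a KO effect that differs, and values within an experiment carry that limit. KO5 and KO6 stood apart by stromal markers, of which 10 of the 11 tested were higher there than in WT. Neutrophil markers were near absent. Of 12, only S100a8 and Mmp8 passed the filter on low counts, the 12 together summed to between 2.40 and 13.7 CPM, and Retnlg and Fcnb had no count in any library. Each chemokine is therefore given by library and within each experiment.

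Cxcl2 was the most abundant CXCR2 ligand of the WT cultures and was lower in every KO library. Its level was 156 and 122 CPM in WT1 and WT2, and 1.92 and 2.63 CPM in KO5 and KO6. In experiment 2 it was 547 and 632 CPM in WT3 and WT4, and 25.0 and 24.7 CPM in KO7 and KO8. The genotypes did not overlap in either experiment, although KO of experiment 2 held 10.9 times the mean level of KO of experiment 1. Cxcl2 fell 61.3-fold in experiment 1 (log2 fold change -5.94, SE 0.21, edgeR adjusted p = 2.65e-05) and 23.7-fold in experiment 2 (-4.57, SE 0.16, edgeR adjusted p = 0.0027). The fall was larger in experiment 1, by a difference of 1.36 on the log2 scale (edgeR interaction test, adjusted p = 0.00413). In bulk RNA, fewer cells that make a transcript and less transcript per cell cannot be told apart.

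Cxcl1 was low in all KO libraries and uneven in WT. It had 29.4 and 9.07 CPM in WT1 and WT2 against 1.596 and 1.775 CPM in KO5 and KO6. In experiment 2 the levels were 152 and 155 CPM in WT3 and WT4 and 3.47 and 2.01 CPM in KO7 and KO8. The KO values of all 4 libraries lay below the lowest WT value, while the WT libraries of experiment 1 differed from each other more than those of experiment 2. In experiment 2 Cxcl1 fell 56.0-fold (log2 fold change -5.81, SE 0.29, edgeR adjusted p = 0.00327). The log2 fold change of -3.53 in experiment 1 (SE 0.86) did not pass, with an edgeR adjusted p of 0.0558. In edgeR the value was -2.43 without WT1, -4.13 without WT2, -3.45 without KO5 and -3.61 without KO6. Such fits leave 1 library in a group, and without WT1 or WT2 the spread of the unlike WT pair drops out. Whether they passed is therefore not informative. The decrease of experiment 1 passed with DESeq2 (adjusted p = 5.04e-05), limma-voom (0.0161), and edgeR with all 8 libraries in 4 groups (0.00292) or with at least 10 counts in every library (0.0441). It did not pass in edgeR with upper-quartile scaling (adjusted p = 0.0603) or with no filter on low counts (0.186).

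Cxcl3, the near copy of Cxcl2, was far scarcer. WT1 and WT2 held 17 and 15 counts (0.418 and 0.440 CPM), and KO5 and KO6 held 1 and 4 counts. WT3 and WT4 held 354 and 410 counts (9.70 and 11.8 CPM), and KO7 and KO8 held 3 and 5 counts (at most 0.120 CPM). All KO libraries were thus close to no signal, and the WT level was 25.0 times higher in experiment 2 than in experiment 1. From summed counts the level was 6.59-fold lower in KO of experiment 1 (95% exact interval 2.55 to 21.7) and 110.8-fold lower in KO of experiment 2 (55.95 to 257.6), intervals that cover counting error only. Both decreases passed, with edgeR adjusted p values of 0.00604 and 0.00327. Cxcl3 met the filter on low counts only through its WT libraries, where it was high. These calls are therefore no independent support for a decrease. One library moved the value of experiment 1, whose log2 fold change of -2.67 became -3.84 without KO6 and -2.07 without KO5. The decreases differed from each other by 4.08 on the log2 scale (edgeR interaction test, adjusted p = 0.00673), which without KO6 was 2.92 and did not pass (adjusted p = 0.257).

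**Figure D1:**
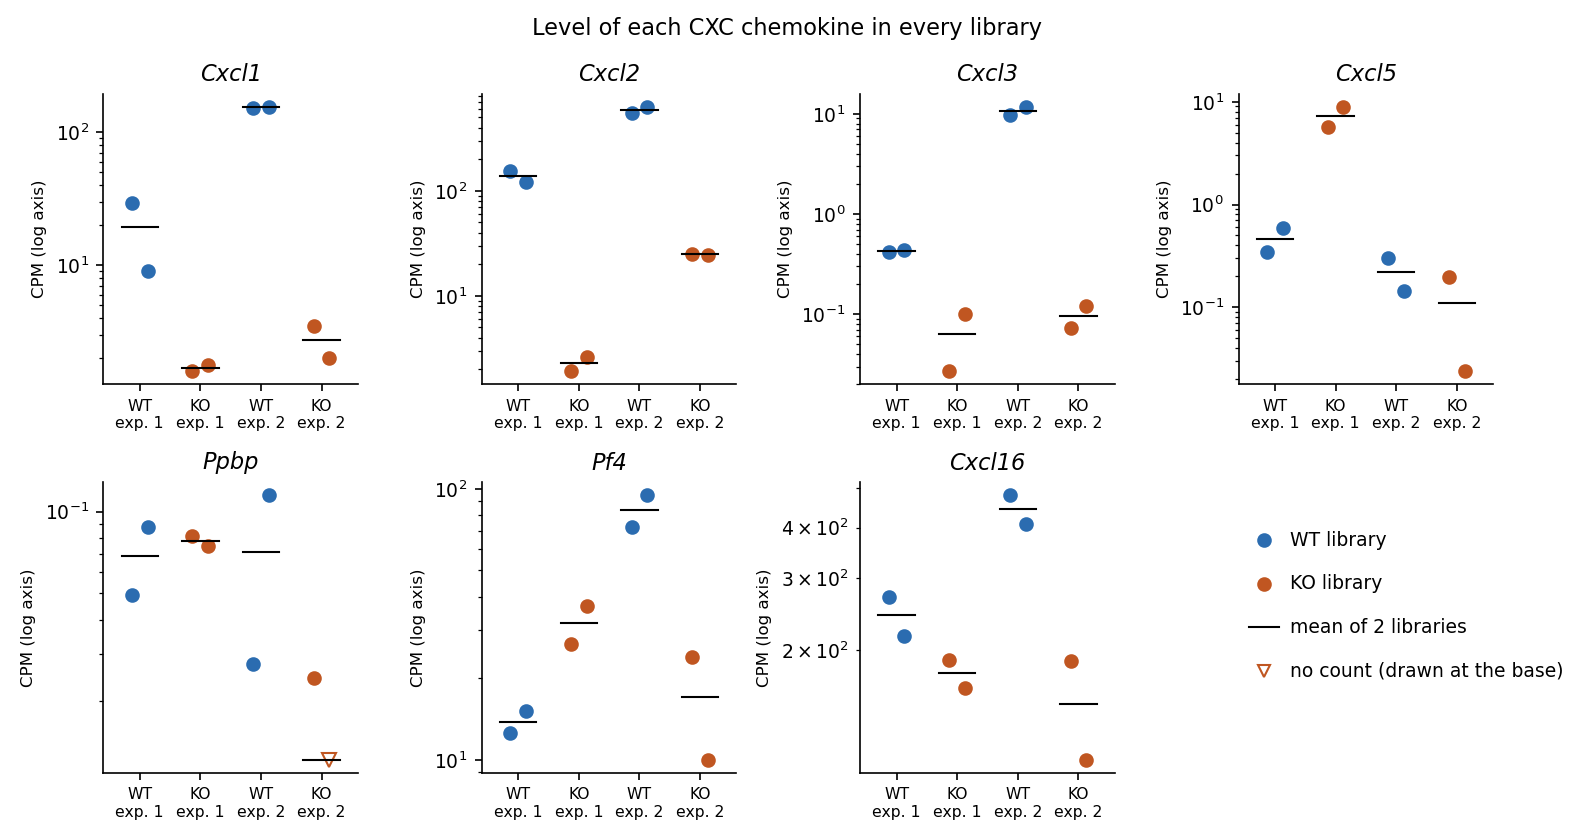
Level of each of the 7 chemokines in CPM on log axes, with 1 point for each library, WT in blue, KO in orange, and a line at the mean of the 2 libraries of a group. Cxcl1, Cxcl2, Cxcl3 and Cxcl16 have all KO points below all WT points, whereas Cxcl5 and Pf4 are higher in KO of experiment 1, and the KO8 point of Ppbp is a count of 0 drawn at the base of the axis.

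Cxcl5, at the other end of the cluster, took the opposite direction in experiment 1. It had 14 and 20 counts in WT1 and WT2 (0.344 and 0.587 CPM) and 211 and 358 counts in KO5 and KO6 (5.71 and 8.95 CPM). Experiment 2 held 11 and 5 counts in WT3 and WT4 and 8 and 1 counts in KO7 and KO8, which is at most 0.302 CPM. Only KO5 and KO6 expressed Cxcl5 above 1 CPM. Cxcl5 rose 15.8-fold in experiment 1 (log2 fold change 3.98, SE 0.34, edgeR adjusted p = 0.00011). In experiment 2 no difference was detectable at this depth (log2 fold change -1.02, SE 0.91, edgeR adjusted p = 0.481), and the value was -3.06 without KO7 and -0.19 without KO8. The effects differed between the experiments by 5.00 on the log2 scale (edgeR interaction test, adjusted p = 0.00651), and without WT3 this difference had an adjusted p of 0.0566. As experiment 2 minus experiment 1 it ran from -7.01 without KO7 to -4.18 without KO8.

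Stromal markers moved with Cxcl5. Of the 11 tested, 10 were higher and Lox, a collagen cross-linking enzyme, was lower in KO of experiment 1, where 27.0% of all genes were higher and 28.1% lower. The list had a median log2 fold change of 4.44 there and of -0.25 in experiment 2, against 0.01 for all genes in each. Pdgfra, a receptor of fibroblasts, had 0.172 and 0.499 CPM in WT1 and WT2, 30.3 and 34.0 CPM in KO5 and KO6, and between 0.0719 and 1.61 CPM in experiment 2. Fbn1, a microfibril protein, had at least 33.9 CPM in KO5 and KO6 and at most 9.54 CPM elsewhere. Lox went the other way and fell by 3.83 on the log2 scale in experiment 1 (edgeR adjusted p = 0.00215). It rose by 2.53 in experiment 2 (edgeR adjusted p = 0.0168), as the only 1 of the 11 that passed there, where 7.52% of all genes were higher. Lum, a keratan sulfate proteoglycan, held 2 counts in all. Because Lox reached 628 CPM in WT1, the sum of the list, 267 to 342 CPM in KO of experiment 1, was not above the 445 to 634 CPM of its WT. The part of stromal cells in the level of Cxcl5 was not tested.

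Ppbp was at the limit of detection. It held 2, 3, 1 and 4 counts in WT1 to WT4 and 3, 3, 1 and 0 counts in KO5 to KO8. No library exceeded 0.115 CPM, and the groups overlapped (two-sided exact permutation test, p = 0.371). Its level was not measurable at this depth in either genotype.

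Pf4 changed direction between the experiments. It had 12.5 and 15.1 CPM in WT1 and WT2 and 26.7 and 37.0 CPM in KO5 and KO6. In experiment 2 it had 72.0 and 94.7 CPM in WT3 and WT4 and 23.96 and 10.02 CPM in KO7 and KO8. The genotypes were apart within each experiment, but over both experiments their ranges overlapped. Pf4 rose 2.29-fold in experiment 1 (log2 fold change 1.19, SE 0.19, edgeR adjusted p = 0.00409) and fell 4.91-fold in experiment 2 (log2 fold change -2.29, SE 0.44, edgeR adjusted p = 0.034). The difference of 3.498 on the log2 scale passed (edgeR interaction test, adjusted p = 0.00229). The decrease of experiment 2 was -3.06 without KO7 and -1.80 without KO8, and it did not pass without WT3 (adjusted p = 0.135), WT4 (0.153) or KO8 (0.0606), all from edgeR.

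The platelet lineage was checked beside Pf4. Of 14 megakaryocyte and platelet markers 6 were tested, of which 3 were higher and 1 was lower in KO of experiment 1 (all genes 27.0% and 28.1%) and none passed in experiment 2 or over both. The defining glycoproteins Gp1ba, Gp1bb, Gp5, Gp6 and Gp9 held at most 11 counts each over all libraries. Itgb3, an integrin chain that macrophages also make, had 4.94 and 4.49 CPM in WT1 and WT2 and 29.2 and 28.3 CPM in KO5 and KO6 (log2 fold change 2.59, edgeR adjusted p = 1.33e-06). Nfe2, a transcription factor of the lineage, fell by 1.74 on the log2 scale in experiment 1 (edgeR adjusted p = 0.0042). Clec1b, a platelet receptor, was at most 1.07 CPM in any library, with its highest value in WT3. It had log2 fold changes of 0.56 and -1.68, the signs of Pf4, which passed in neither experiment (edgeR adjusted p = 0.348 and 0.1004). Summed, the list was 161 to 189 CPM in KO of experiment 1 and 56.7 to 85.4 CPM in the other groups, mostly from Vwf. WT of experiment 2, where Pf4 was highest, had a sum of 56.7 to 57.7 CPM. Of the neutrophil markers, Mmp8, a collagenase, had log2 fold changes of 0.17 and -0.73, the signs of Pf4, and passed in neither experiment (edgeR adjusted p = 0.405 and 0.508). S100a8, a calcium-binding protein, was at most 1.33 CPM in every library and fell by 2.24 on the log2 scale in experiment 1 (edgeR adjusted p = 0.000907). The part of these cell types in the level of Pf4 was not tested.

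**Figure D2:**
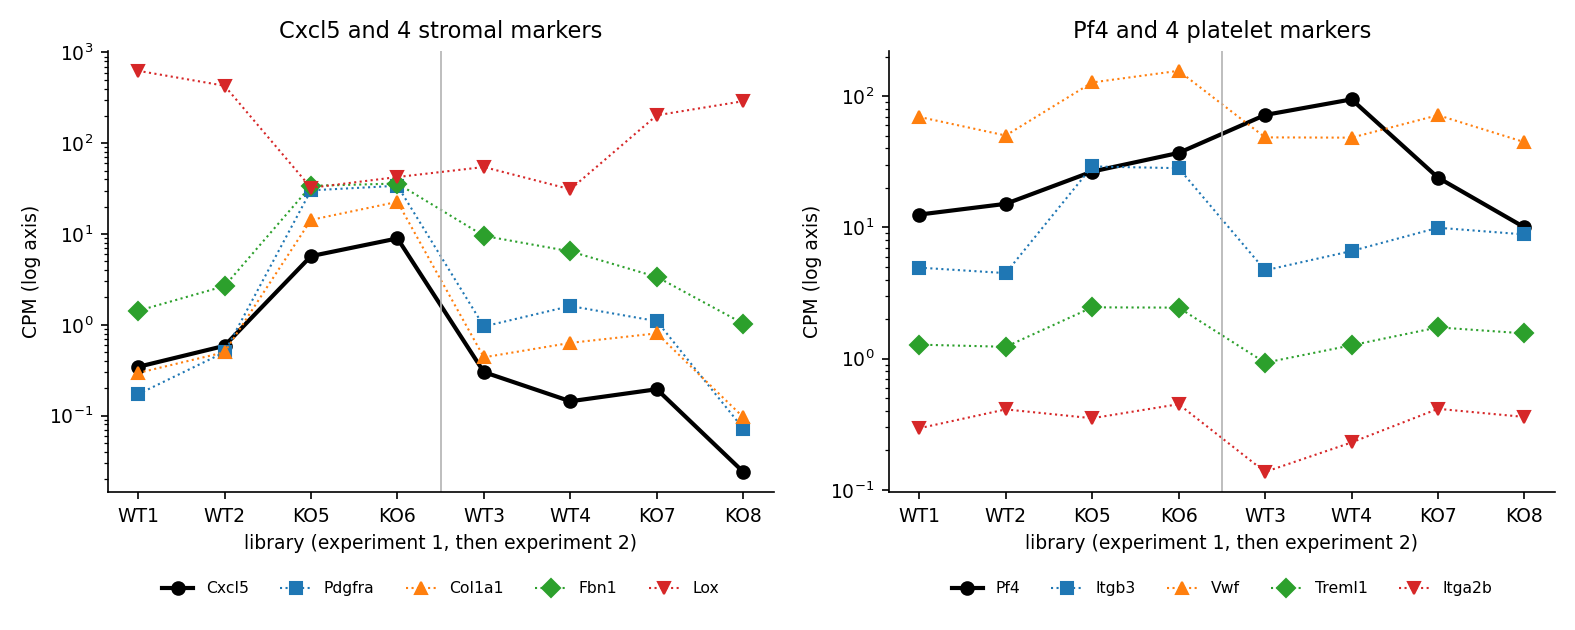
CPM on log axes in each library, with experiment 1 to the left and experiment 2 to the right of the grey line, for Cxcl5 with 4 stromal markers and for Pf4 with 4 platelet markers. Cxcl5, Pdgfra, Col1a1 and Fbn1 peak together in KO5 and KO6, where Lox is low, and Pf4 is highest in WT3 and WT4, while the 4 platelet markers drawn have no peak there (Clec1b, not drawn, is highest in WT3).

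Cxcl16 was abundant in both genotypes and lower in every KO library. It had 271 and 216 CPM in WT1 and WT2 and 189.7 and 162 CPM in KO5 and KO6. WT3 and WT4 had 480.0 and 407 CPM, and KO7 and KO8 had 188 and 108 CPM. The ranges were apart, with KO5 and WT2 the nearest pair. Cxcl16 fell 1.40-fold in experiment 1 (log2 fold change -0.48, SE 0.13, edgeR adjusted p = 0.0277) and 3.00-fold in experiment 2 (-1.58, SE 0.29, edgeR adjusted p = 0.0299). The first did not pass with all 8 libraries in 1 fit of 4 groups (adjusted p = 0.167), with upper-quartile scaling (0.0569), without WT1 (0.0568) or without KO6 (0.122), and the second did not pass without WT3 (0.117), WT4 (0.0729) or KO8 (0.0698), all from edgeR.

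Counted together, 3 of the 6 tested chemokines were lower and 2 higher in KO of experiment 1, where 28.1% of all tested genes were lower and 27.0% higher. In experiment 2, 5 were lower and 0 higher (0 also by DESeq2 and limma-voom, and 0 at an unadjusted p under 0.05), where 8.29% of all genes were lower and 7.52% higher. Their median log2 fold change was -1.58 and -3.43, beside 0.01 for all genes in each experiment. The share of experiment 1 is to be read beside a background in which 7948 of 14418 genes passed. Cxcl3, counted as lower in both experiments, was tested only because of its WT libraries.

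The joint fit uses the libraries of both experiments again and is no independent test of them. With the experiment as a term, Cxcl1, Cxcl2 and Cxcl3 passed as lower, where 3.41% of all genes were lower and 3.72% higher. The log2 fold change was -4.69 for Cxcl1 (SE 0.66, edgeR adjusted p = 0.0116), -5.22 for Cxcl2 (SE 0.34, edgeR adjusted p = 0.000891) and -5.30 for Cxcl3 (SE 0.89, edgeR adjusted p = 0.0197). The value of Cxcl3 was -6.37 without KO6 and -4.52 without KO7. Cxcl16 had -1.03 (SE 0.29, edgeR adjusted p = 0.08) and passed with DESeq2 (adjusted p = 0.00512). Cxcl5, with 2.01 (SE 1.23, edgeR adjusted p = 0.359), and Pf4, with -0.55 (SE 0.82, edgeR adjusted p = 0.735), did not pass. The value of Cxcl5 was 1.02 without WT1 and 2.93 without WT3. In the interaction test all 6 differed between the experiments, as did 41.6% of all genes, and 3 to 5 of them passed with 1 library left out. Without WT1 or KO7, Cxcl2 alone passed in the joint fit, and Cxcl3 did not pass without KO5 (edgeR adjusted p = 0.063).

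For 4 of the 7 genes, Cxcl1, Cxcl2, Cxcl3 and Cxcl16, all 4 KO libraries lay below all 4 WT libraries, as they did for 6.25% of the genes tested. The exact permutation test of mean log2 CPM gave p = 0.0286 for each of them over all arrangements and 0.0556 with labels exchanged within experiments (two-sided), the smallest values that 70 and 36 arrangements allow. These values follow from the separation itself and are no further support. Since the KO and WT ranges are apart, the order holds for any WT and KO group set side by side, and only the size of the ratio is informative. The mean CPM of WT in experiment 1 exceeded that of KO in experiment 2 by 7.02 times for Cxcl1, 5.59 times for Cxcl2, 4.44 times for Cxcl3 and 1.65 times for Cxcl16. The mean CPM of WT in experiment 2 exceeded that of KO in experiment 1 by 91.05, 259, 169 and 2.52 times. For Pf4 the corresponding ratios were 0.815 and 2.62, and for Cxcl5 they were 4.25 and 0.0304, so these 2 genes had no common direction. In a joint fit with KO5 and KO6 placed in experiment 2 and KO7 and KO8 in experiment 1, Cxcl1, Cxcl2 and Cxcl3 had nearly the same log2 fold changes of -4.62, -5.11 and -5.25 but edgeR adjusted p values of 0.0698, 0.0826 and 0.0698.

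**Figure D3:**
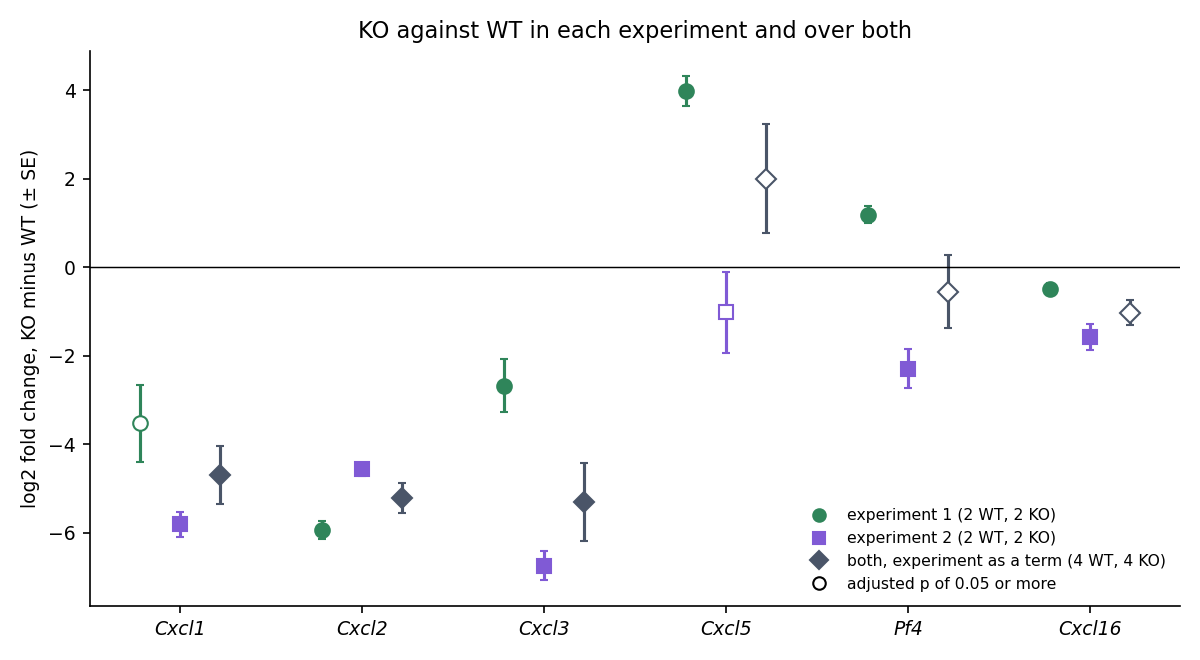
Log2 fold change of KO minus WT for the 6 tested chemokines, in experiment 1 (circles), experiment 2 (squares) and both (diamonds). Bars are an approximate SE derived from the F statistic of the test. Filled symbols passed an adjusted p under 0.05. Cxcl1, Cxcl2 and Cxcl3 lie between -2.67 and -6.75 in every comparison, and Cxcl5 and Pf4 lie on opposite sides of 0 in the 2 experiments.

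The level of the WT cultures differed between the experiments as well. The mean CPM of WT in experiment 2 was 25.0 times that of experiment 1 for Cxcl3, 7.98 times for Cxcl1, 6.02 times for Pf4, 4.24 times for Cxcl2 and 1.82 times for Cxcl16. Cxcl5 went the other way, 2.09 times higher in experiment 1, and Ppbp, with 5 counts in each, had a ratio of 1.04. No test was made of this, because any other difference between the experiments goes with it. The ratio of Cxcl1 rests on unlike WT libraries in experiment 1, with 29.4 and 9.07 CPM. Among the KO cultures, Cxcl2 was 10.9 times higher in experiment 2, whereas Cxcl5 was 66.9 times and Pf4 1.87 times higher in experiment 1. The ratio of Cxcl5 rests on 8 and 1 counts in KO7 and KO8.

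Per kb of transcript, which allows levels of different genes to be compared, Cxcl2 led in WT. Its mean was 125 CPM per kb in WT of experiment 1, followed by Cxcl16 with 90.2, Pf4 with 23.5 and Cxcl1 with 20.2 CPM per kb, of which the last 2 overlapped. In WT of experiment 2, Cxcl2 had 531 CPM per kb, and Cxcl16 (164), Cxcl1 (161) and Pf4 (142) overlapped in turn. Cxcl3 followed with 0.422 and 10.6 CPM per kb, above Cxcl5 and Ppbp in both. In KO the order changed, and Cxcl16 came first with 65.2 and 54.9 CPM per kb, overlapping with Pf4 (54.1 and 28.9). In KO of experiment 1, Cxcl5 with 4.65 CPM per kb stood above Cxcl2 (2.05) and Cxcl1 (1.77), which overlapped. In KO of experiment 2, Cxcl2 with 22.4 CPM per kb overlapped with Pf4 and stood above Cxcl1 with 2.88, while Cxcl3, Cxcl5 and Ppbp were not apart from each other in order. Cxcl2 made up 47.9% to 53.9% of the summed CPM per kb of the 7 genes in WT, 1.41% and 1.78% in KO5 and KO6, and 16.5% and 27.3% in KO7 and KO8. The ratio of Cxcl2 to Cxcl1 per kb was 3.10 to 11.5 in WT, 6.203 and 10.53 in KO7 and KO8, and 1.03 and 1.27 in KO5 and KO6.

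**Figure D4:**
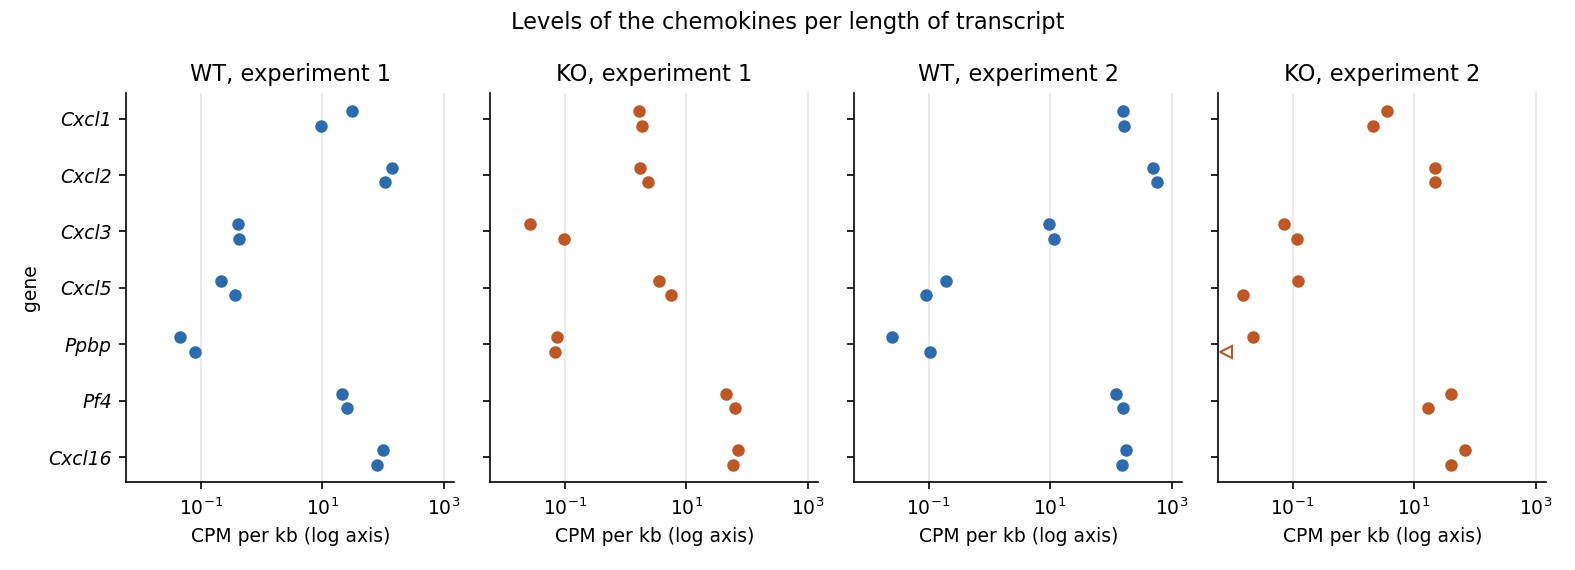
CPM per kb of transcript on log axes for the 7 chemokines, with 1 point for each of the 2 libraries of a group, and WT in blue, KO in orange. Cxcl2 is the highest gene in both WT groups, Cxcl16 and Pf4 are the highest in KO of experiment 1, and the open triangle marks the count of 0 of Ppbp in KO8.

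Between the chemokines themselves, log2 CPM over the 8 libraries correlated most for Cxcl1 with Cxcl3 (Pearson r = 0.96), Cxcl1 with Cxcl16 (0.93) and Cxcl1 with Cxcl2 (0.92). Cxcl5 had a coefficient of -0.69 with Cxcl2 and 0.14 with Pf4. The libraries share genotype and experiment, so these values describe 4 groups of 2. The tested genes most like each member over the 8 libraries were named by the same coefficient. For Cxcl1 they were Cd80 (r = 0.9964), Ttpal, Cdc42ep2, H2-M2 and Calm3. For Cxcl2 they were Gfm1 (0.9972), Trim13, Tnip3, Pfn1 and Ptgs2, and for Cxcl3 Bub3 (0.9934), Clec5a, Rel, Tnfsf4 and Icam1. Cxcl5 was followed most closely by Phldb2 (0.9922), Gpx8, Lama4, Mark1 and RP23-207N15.7. Pf4 went with Ncaph2 (0.9931), H2afx, Fam64a, Polr2j and Tmed8, and Cxcl16 with Tgm2 (0.9823), Cybb, Ccdc18, RP23-250D22.2 and F9. No gene stood in the lists of 2 members.

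Neighbours of the cluster gave little signal. Cxcl15, between Cxcl3 and Cxcl1, had no count in any library. Mthfd2l, a mitochondrial folate enzyme and the only neighbour tested, had between 5.18 and 7.59 CPM and passed in neither experiment (log2 fold changes -0.31 and 0.07, edgeR adjusted p = 0.111 and 0.814). Rassf6 held 113 counts in all, Ereg 23, Epgn 17 and Afm 1.

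The other CXC ligands did not share the pattern of Cxcl2. Of 8, 4 were tested, and 0 were lower and 2 higher in experiment 1 (all genes 28.1% and 27.0%), 2 lower and 0 higher in experiment 2 (8.29% and 7.52%), and none passed over both (edgeR). Cxcl10, an interferon-induced ligand of CXCR3, had 7.13 and 3.81 CPM in WT1 and WT2 and 4.44 and 6.30 CPM in KO5 and KO6, but 1099 and 397 CPM in WT3 and WT4 against 1.95 and 0.911 CPM in KO7 and KO8. It fell by 9.03 on the log2 scale in experiment 2 (edgeR adjusted p = 0.00867) and had a log2 fold change of -0.05 in experiment 1 (edgeR adjusted p = 0.919). Cxcl9, of the same group, held 3 counts in WT of experiment 1 and 3 counts in KO of experiment 2, at or under a floor of 3 counts per library. It was at least 7.11-fold higher in KO of experiment 1 and at least 65.4-fold lower in KO of experiment 2. Cxcl12, a stromal ligand of CXCR4, had 0.221 and 0.528 CPM in WT1 and WT2 and 10.96 and 13.52 CPM in KO5 and KO6 (log2 fold change 5.05, edgeR adjusted p = 1.81e-05), the direction of Cxcl5. Cxcl14 passed in neither experiment, although KO7 had 23.5 CPM where no other library exceeded 2.93 CPM. Cxcl11 had 13.8 and 3.11 CPM in WT3 and WT4 and at most 0.200 CPM elsewhere and was not tested, and Cxcl13 and Cxcl17 had no count.

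The receptors of these ligands were barely present. Cxcr2, through which 5 of the 7 ligands act, held 3 counts in all, Cxcr1 9, Cxcr6, the receptor of CXCL16, 10, and the scavenging receptor Ackr1 0. Cxcr3 alone was tested, with 1.37 to 2.41 CPM in WT and 1.99 to 6.58 CPM in KO. It rose by 1.40 on the log2 scale in experiment 1 (edgeR adjusted p = 0.000284) and had 1.05 in experiment 2 (edgeR adjusted p = 0.205).

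Of 12 genes that shed chemokines or hold them at the cell surface, 3 were lower and 7 higher in experiment 1 (all genes 28.1% and 27.0%), so the lower share was at the background. In experiment 2, 4 were lower and 1 higher (all genes 8.29% and 7.52%), and over both 2 were lower and 1 higher (all genes 3.41% and 3.72%). Rhbdf2 (iRhom2), which matures the sheddase ADAM17, had 67.0 to 110 CPM in WT and 40.28 to 57.95 CPM in KO. It fell by 0.73 and 0.81 on the log2 scale in experiments 1 and 2 (edgeR adjusted p = 3.75e-05 and 0.0216). Adam17 itself, added after its values were seen, had 498 to 886 CPM in WT and 308 to 466 CPM in KO. Its log2 fold changes were -0.85 and -0.93 (edgeR adjusted p = 0.000485 and 0.022). Adam10, the sheddase of CXCL16, was between 145 and 171 CPM in all libraries, with log2 fold changes of -0.21 (edgeR adjusted p = 0.0119) and 0.11 (edgeR adjusted p = 0.527). Sdc4, a heparan sulfate proteoglycan, rose by 0.51 in experiment 1 (edgeR adjusted p = 0.000658) and fell by 2.23 on the log2 scale in experiment 2 (edgeR adjusted p = 0.0155), the same signs as Pf4. Sdc3 and Ndst1, a syndecan and an enzyme of heparan sulfate synthesis, rose by 1.37 and 1.05 in experiment 1 and passed in experiment 2 in neither case.

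Genes that induce these chemokines or regulate that signalling were lower in KO in larger number. The 25 genes encode cytokines, receptors, adaptors, kinases and transcription regulators. Of them, 17 were lower and 4 higher in experiment 1 (all genes 28.1% and 27.0%), and 12 lower and 2 higher in experiment 2 (8.29% and 7.52%). Over both, 7 were lower and 3 higher (3.41% and 3.72%). The lower genes included the inhibitor gene Nfkbia each time. The median log2 fold change was -0.52 and -0.56. Tnf, which encodes TNF, had 325 and 295 CPM in WT1 and WT2, 20.3 and 26.7 CPM in KO5 and KO6, 1410.0 and 1630.0 CPM in WT3 and WT4, and 128 and 123.5 CPM in KO7 and KO8. Like Cxcl2, it was higher in experiment 2 in both genotypes, and it had log2 fold changes of -3.73 and -3.59 (edgeR adjusted p = 2.19e-05 and 0.00322). Nfkbia, the NF-κB inhibitor that NF-κB itself induces, fell by 1.91 and 2.67 (edgeR adjusted p = 2.84e-06 and 0.00327). Cebpd and Fos, 2 transcription factors, fell by 1.71 and 1.76 in experiment 1 (edgeR adjusted p = 9.01e-07 and 1.33e-06) and passed in experiment 2 in neither case (log2 fold changes -0.56 and -0.35). The 3 that were higher over both, named after their values were seen, were the receptor genes Il1r1, Tlr4 and Il17ra, with log2 fold changes of 2.14, 0.44 and 0.79.

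The list of mRNA decay factors held 11 genes, not all of which promote decay. Tnfaip3 (A20) is a ubiquitin-editing enzyme and no decay factor, and Elavl1 and Arid5a can stabilize mRNAs. Of the 10 without Tnfaip3, 3 were lower and 3 higher in experiment 1, close to the shares of all genes (28.1% and 27.0%). Elavl1 was among these lower genes and Arid5a among the higher. In experiment 2 and over both, 2 were lower and 1 higher (all genes 8.29% and 7.52%, and 3.41% and 3.72%). Zc3h12a (regnase-1), an RNase that cleaves inflammatory mRNAs, fell by 1.79 and 0.74 on the log2 scale (edgeR adjusted p = 1.67e-06 and 0.02). Zfp36l2, which binds AU-rich elements, rose by 0.95 and 0.74 (edgeR adjusted p = 9.74e-06 and 0.0182). Tnfaip3 had log2 fold changes of -2.90 and -2.64 (edgeR adjusted p = 1.17e-05 and 0.0107).

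Partners in neutrophil recruitment followed Cxcl2 in part. Of 12, 6 were tested, 4 lower and 2 higher in experiment 1 (all genes 28.1% and 27.0%), 3 lower and 1 higher in experiment 2 (8.29% and 7.52%), and 2 lower and 1 higher over both (3.41% and 3.72%). Icam1, the adhesion molecule that neutrophils bind, had 184 and 167 CPM in WT1 and WT2, 86.8 and 96.3 CPM in KO5 and KO6, 1077 and 1073 CPM in WT3 and WT4, and 85.3 and 79.7 CPM in KO7 and KO8. It had log2 fold changes of -0.95 and -3.70, both past the threshold (edgeR adjusted p = 2.87e-05 and 0.00322). Ptgs2 (COX-2) fell by 4.52 and 3.46 (edgeR adjusted p = 0.000433 and 0.00609). Il6 held 1 count in each of KO5 and KO6 and was at least 14.0-fold lower there than in WT. The gene that was higher over both, named after its values were seen, was Cxcr4, the receptor of CXCL12, with 25.2 to 97.0 CPM in WT and 171 to 316 CPM in KO. Csf3 and Csf2, the growth factors of granulocytes, were not tested, with 40 and 132 counts in all. In WT3 and WT4, Csf3 had 0.795 and 0.201 CPM and Csf2 1.29 and 2.30 CPM. Elsewhere they had at most 0.0492 and 0.0587 CPM.

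Genes of resident macrophages were compared last. Of 13 tested, 2 were lower and 9 higher in experiment 1 (all genes 28.1% and 27.0%). In experiment 2 and over both, 0 were lower and 2 higher (all genes 8.29% and 7.52%, and 3.41% and 3.72%). Mrc1, the mannose receptor, had 465 and 571 CPM in WT1 and WT2 and 1962 and 1969 CPM in KO5 and KO6 (log2 fold change 1.91, edgeR adjusted p = 8.01e-06), with -0.09 in experiment 2 (edgeR adjusted p = 0.929). Cd36, a scavenger receptor, fell by 1.99 in experiment 1 (edgeR adjusted p = 2.51e-06) and had 1.13 in experiment 2 (edgeR adjusted p = 0.115). Cd209f had no count in KO5, KO6, WT3 and WT4 and at most 1.76 CPM in the others.

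**Figure D5:**
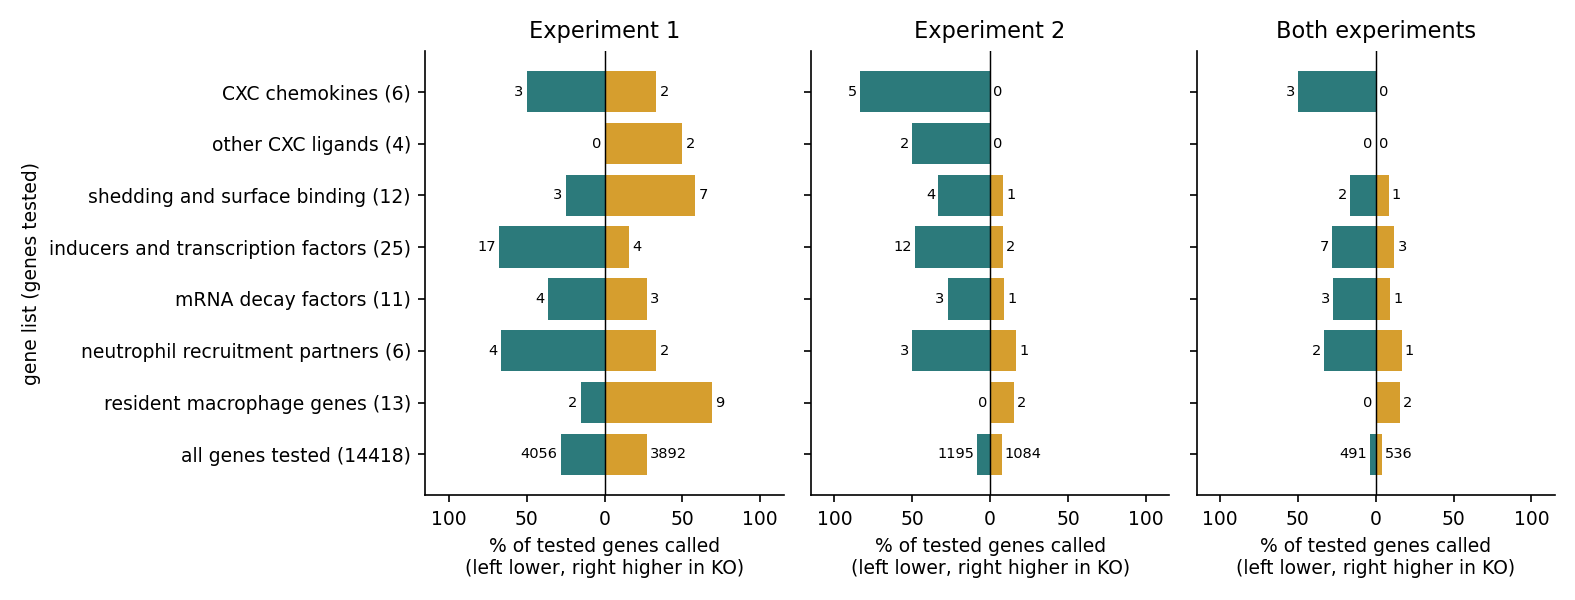
Share of the tested genes of each list, and of all tested genes, that passed an adjusted p under 0.05 as lower (bars to the left) or higher (bars to the right) in KO, in experiment 1, experiment 2 and both; numbers beside the bars are genes. The chemokines have 3, 5 and 3 lower genes of 6. The list of inducers and transcription factors has 17, 12 and 7 lower genes of 25, among them the inhibitor gene Nfkbia.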

How the data were processed

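RNA-seq of 8 BMDM libraries was analysed from the counts per gene that the authors deposited in 1 table for each experiment. The processing notes name STAR 2.7.0f, featureCounts of Subread 1.6.4, DESeq2 1.22.1 and GRCm38, without roles. The deposited normalized counts are a signal, equal to the counts divided by a factor set within each experiment, and were used only to check the unit.

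Counts were joined by symbol, filtered by filterByExpr by genotype over all libraries (14418 of 53735 genes), scaled by TMM and tested with edgeR 4.0.16 in R 4.3.3 (robust quasi-likelihood fit, glmQLFTest), within each experiment, over both with an experiment term, and for the interaction. Adjusted p values are Benjamini-Hochberg values over all genes tested, with a threshold of 0.05. CPM are counts per 1000000 of the TMM-scaled total, and CPM per kb divide by the length of the protein-coding transcript with the longest coding sequence. Log2 CPM used a prior count of 2. Where no library of a group exceeded 3 counts, that number was taken as the floor, and folds are bounds. Alternatives were DESeq2 1.42.0, limma-voom (limma 3.58.1), upper-quartile scaling, other filters, thresholds and covariates, and each library left out. Scripts were checked on simulated data.

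Members and lists were chosen with earlier results of these data known. The text names all members and Mkl1, every other CXC ligand and receptor, the neighbours of the cluster, the 5 genes most like each member and, from each other list, the 2 genes with the smallest p in each experiment. Some results under this rule are not reported here. Genes given beside these were added after values were seen. Of the 8 dendritic markers only Zbtb46 was tested, and it passed in neither experiment.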

Additional observations from a re-analysis of the deposited data

Results flagged for a closer look

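The effect of KO differed between the experiments for all 6 tested chemokines in the interaction test of edgeR (experiment 2 minus experiment 1, log2 scale). With limma-voom 5 of the 6 passed, and Cxcl1 did not (-2.54, adjusted p = 0.0837). For Cxcl2 the difference was 1.36, since its fall was larger in experiment 1. The difference was -2.29 for Cxcl1, -4.08 for Cxcl3 and -1.11 for Cxcl16, whose log2 fold changes were negative in both experiments and more so in experiment 2. That of Cxcl1 did not pass in experiment 1 (edgeR adjusted p = 0.0558). For Pf4, which passed as higher in experiment 1 and as lower in experiment 2, it was -3.5. For Cxcl5, which rose in experiment 1 and showed no detectable difference in experiment 2, it was -5.0. Single libraries moved the difference of Cxcl1 to -3.36 without WT1 and -1.69 without WT2, and that of Pf4 to -4.22 without KO7. Of all tested genes 41.6% differed in the same test, so a difference between the experiments was common. Their cause was not tested, and genotype effects that differ cannot be told apart from swapped KO libraries. Dixon's test over the 4 libraries of a genotype pointed to no outlier, but with levels that differ this much between experiments it could hardly do so.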

How the results depend on the processing

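Of 309 log2 fold changes of the chemokines under alternatives, 256 kept their direction and their side of the threshold, 44 no longer passed, 8 newly passed and 1 changed sign. The one that changed sign was Pf4 over both experiments, with 0.19 without KO8 (edgeR adjusted p = 0.892), where the fits with 1 library left out gave -1.19 to 0.19. With at least 10 counts in every library, 1 chemokine was higher in experiment 1, because Cxcl5 and Cxcl3 were then not tested. At an adjusted p under 0.01, 3 were lower in experiment 2 and 1 over both. Over both experiments, 0 were lower without the experiment term (edgeR adjusted p = 0.142 for Cxcl1 and 0.146 for Cxcl2 and Cxcl3) and 0 with the KO libraries exchanged. With each library left out in turn, the number lower was 2 to 4 in experiment 1, 3 to 5 in experiment 2 and 1 to 3 over both, the number with an interaction was 3 to 5, and the number higher was 2 in experiment 1 and 0 otherwise. Interaction calls held for Cxcl2 and Pf4 in every such fit, Cxcl1 passed only without WT1 or WT2, and Cxcl16 only without KO7 or KO8. The decrease of Pf4 in experiment 2 was lost when every gene with 1 count or more was tested (adjusted p = 0.258). Genes called over both experiments numbered 1027, 2492 with DESeq2, 4811 for the mean of the 2 within-experiment effects, 26 with the KO libraries exchanged, 4 without the experiment term, and 243 to 1100 with 1 library left out. In experiment 2 they numbered 2279, 4899 with 4 groups in 1 fit, and 232 to 1388 with 1 library left out. A library left out leaves 1 library of its group within an experiment, which is assumed to vary like the other group. DESeq2 gave no adjusted p for Cxcl5 in experiment 2. No paired analysis was possible because WT and KO libraries share no replicate numbers. Depth limits Ppbp and Cxcl3 in KO and Cxcl5 in experiment 2, where libraries held 0 to 11 counts.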
